A study of Mus musculus with 44 samples.

Results

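Of 135391 H3K27me3 regions listed for mouse haematopoietic progenitor cells, 710 overlapped both a RING1B peak and a PCGF1 peak by 1 bp or more, and these 710 regions are described here. They were 0.524% of all regions (exact 95% binomial interval 0.487 to 0.564), covered 17.0 Mb, or 3.52% of the bases in the list, and carried 7.07% of its total signal. The other regions fell into 6828 with RING1B and no PCGF1, 121 with PCGF1 and no RING1B, and 127732 with neither. They were chosen by their measured positions in all 3 lists, so the presence of RING1B and PCGF1 is the rule and not a result. A wide region also has more room to hold a peak, so the rule itself raises width. Every value below describes these lists, with no test.

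The study examined gene regulation by PCGF1 with 44 libraries in 23 groups. The 3 lists each stand for 2 libraries of IdHP cells, haematopoietic progenitors derived from bone marrow of B6CBAF1/J mice. The cells were at passage 15 to 18 and had been grown on TSt4 stroma with IL7, SCF and Fl3L. PCGF1 was mapped with an antibody to FLAG in Pcgf1 -/- cells given FLAG-PCGF1, RING1B in Pcgf1 fl/fl cells, and H3K27me3 in Pcgf1 fl/fl cells. How FLAG-PCGF1 was introduced, and how its level compares with PCGF1 of unaltered cells, is not given in the sources used here, and the cell type was not checked against markers because the lists name no genes. No list gives values per library, so no value has a replicate error, and the read depth is unknown. Intervals cover counting error only and treat regions as independent, which neighbours are not. The PCGF1 list comes from other cells than the other lists, and whether the marks and proteins lay on the same chromatin in the same cell was not measured.

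Polycomb repressive complexes keep genes silent in cells that do not need them. Polycomb repressive complex 2 writes H3K27me3, the trimethyl mark on lysine 27 of histone H3. Polycomb repressive complex 1 is built around RING1B, which attaches ubiquitin to histone H2A. One PCGF protein sits in each form of that complex and sets its type; PCGF1 defines a variant form that its partner KDM2B brings to unmethylated CpG-rich DNA. Ubiquitin left by variant complexes helps to recruit complex 2, and H3K27me3 in turn is read by the canonical forms of complex 1. In blood progenitors this machinery is known for holding back regulators of other lineages.

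The 710 regions were wide. Their median width was 15940 bp (exact interval of the median 14240 to 18030), against 5850 bp (5640 to 6050) in regions with RING1B and no PCGF1, 10010 bp (6890 to 12450) in regions with PCGF1 and no RING1B, and 1750 bp in regions with neither. Closest in width were the regions with several RING1B peaks and no PCGF1, with a median of 11910 bp (11130 to 12460). The middle 50% of the 710 ran from 7597.5 to 29057.5 bp, and the whole range from 760 to 275160 bp. Of the 710, 543 (76.5%) lay in the widest 10% of the list, where the share of all regions is 10.0% by definition. Among regions with several RING1B peaks and no PCGF1 that share was 69.9%. The chance of holding both proteins climbed with width in the way the rule favours. Among all regions of up to 2 kb it was 0.0535% (39 regions), among those of 10 to 20 kb 3.04% (175) and among those over 50 kb 22.7% (78).

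**Figure D1:**
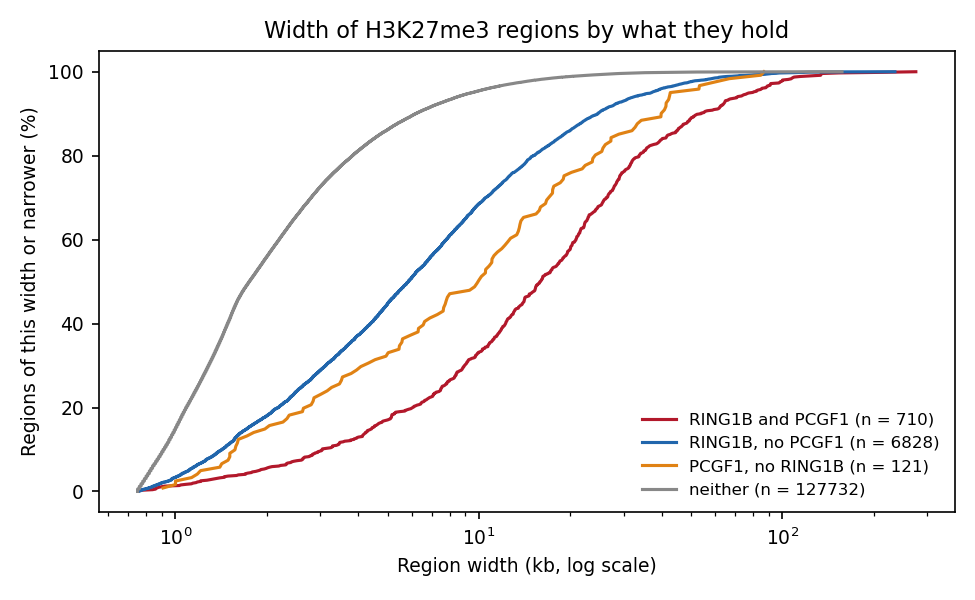
Cumulative share of H3K27me3 regions (y axis, %) by region width (x axis, kb, log scale), for the 710 regions with RING1B and PCGF1, 6828 with RING1B alone, 121 with PCGF1 alone and 127732 with neither. The curve of the 710 lies farthest to the right, with a median of 15940 bp, against 5850, 10010 and 1750 bp in the others.

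Regions just inside and just outside the rule show how it divides the list. The largest overlap of a region with a PCGF1 peak had a median of 441.5 bp over the 710 and was as small as 3 bp, at chromosome 17, 8145280 to 8148150. With RING1B the median was 2958.5 bp, and the smallest was 42 bp at chromosome 17, 65961700 to 65962560, which was also the lowest of the 710 with a height of 44.3. The 12 regions in which one of these overlaps was under 50 bp had a median width of 10630 bp and a median height of 148. A further 148 regions met the rule once peaks within 1 kb were counted. Those 148 had a median width of 3680 bp and a median height of 90.6, and 90 of them held RING1B already. Limited to the stronger 50% of RING1B and PCGF1 peaks, the rule gave 447 regions in place of 710.

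The mark itself was tall in these regions. Height is the highest signal in a region on the authors' own scale, which is not stated and starts at 40 in this list. The median height was 159 (155 to 166) in the 710 regions, against 100 (98.9 to 101) with RING1B and no PCGF1, 128 (118 to 145) with PCGF1 and no RING1B, and 67.4 with neither. Of the 710, 613 (86.3%, 83.6 to 88.8) lay in the tallest 10% of the list, where the share of all regions is 10.0%. Among regions with RING1B and no PCGF1 it was 44.5%, and among those of them with several RING1B peaks 64.9%. With PCGF1 and no RING1B it was 70.2%.

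Height grows with width, so regions were also compared at equal widths. For this, the other regions were weighted to the distribution of the 710 over 6 width classes (up to 2, 2 to 5, 5 to 10, 10 to 20, 20 to 50 and over 50 kb). Widths matched by class were close but not identical. The median width of the 710 was still 1.03 times that of regions with RING1B and no PCGF1, and 1.09 times that with neither. To regions with several RING1B peaks and no PCGF1 it was 1.00 times, and to those with 1 such peak 1.06 times. The median height of the 710 was then 1.31 times (1.28 to 1.37) that of regions with RING1B and no PCGF1, and 1.51 times (1.48 to 1.58) that of regions with neither. These intervals carry the error of the median of the 710 alone. The ratio to regions with several RING1B peaks and no PCGF1 was 1.29, and to regions with 1 RING1B peak and no PCGF1 1.34. With RING1B cover, the share of a region's bases under RING1B peaks, equalised too, it was 1.30. It was above 1 in every width class, from 1.17 over 50 kb to 1.52 up to 2 kb. Taken chromosome by chromosome it was above 1 on 20 of 20 chromosomes, from 1.17 on chromosome 5 to 1.79 on X, where there were 7 such regions.

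Set beside the 121 regions with PCGF1 and no RING1B, the 710 had a slightly higher median height. The ratio of median heights at equal width was 1.05 (1.03 to 1.10), and that of total signal 0.987 (0.915 to 1.10). Both intervals leave out the error of the 121, whose own median height had an interval of 118 to 145. These values therefore do not settle which set was taller. Those 121 regions were in turn 1.37 times (1.26 to 1.55) as tall as regions with neither at the widths of the 121, and regions with RING1B and no PCGF1 1.18 times (1.17 to 1.19) as tall as regions with neither at their own widths. In each of the 6 width classes the median height with PCGF1 alone was above that with RING1B alone. At 10 to 20 kb it was 148 (127 to 164) against 119 (117 to 121). In the other classes the intervals overlapped. Up to 2 kb the medians were 76.5 (59.8 to 107) and 72.7 (71.4 to 73.4), and over 50 kb 177 (161 to 213) and 169 (163 to 175). Within width classes the ratio of the 710 to regions with PCGF1 alone lay between 1.04 and 1.44, on 6 to 31 regions of the second kind per class.

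**Figure D2:**
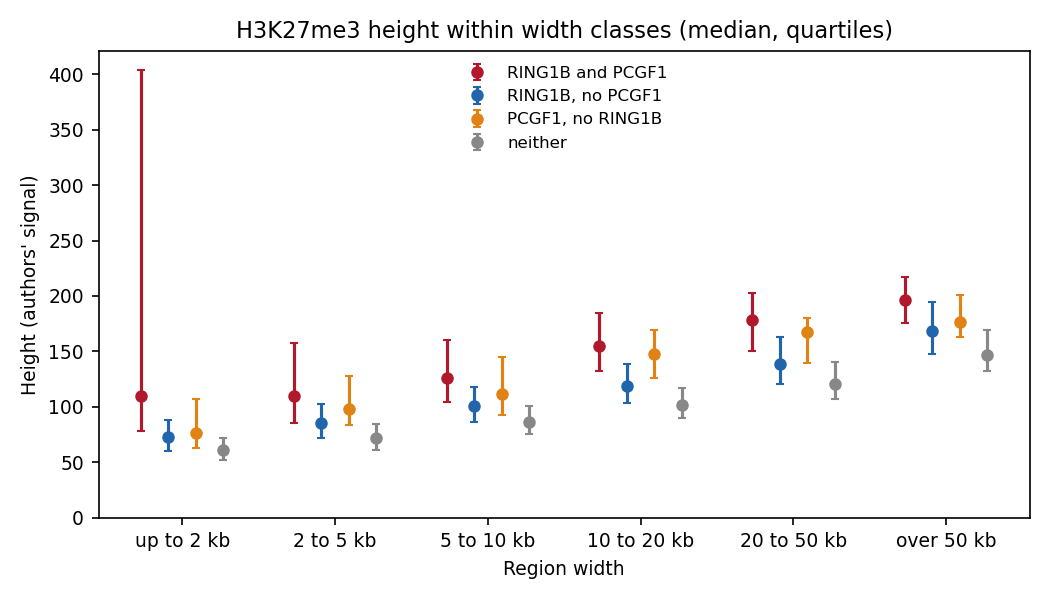
Median height of H3K27me3 regions (y axis, authors' signal scale, from 0) in 6 width classes (x axis); points are medians and bars run between the quartiles. In each class the regions with RING1B and PCGF1 have the highest median, from 110 in regions up to 2 kb to 197 over 50 kb, against 72.7 and 169 with RING1B alone.

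The mark was not only taller but filled more of the region than with RING1B alone or with neither. The median share of a region above the authors' cutoff was 29.9% (28.7 to 31.2) in the 710, against 17.0% (16.7 to 17.2) with RING1B and no PCGF1, 25.6% (24.1 to 28.7) with PCGF1 and no RING1B, and 10.9% with neither. In bases, the width above the cutoff had a median of 4825 bp (4480 to 5240) in the 710, against 900 bp (860 to 940) with RING1B and no PCGF1. At equal width the share above the cutoff was 1.50 times (1.44 to 1.57) that of regions with RING1B alone. To regions with PCGF1 alone the ratio was 1.07 (1.02 to 1.11), and 1.10 (1.05 to 1.14) for signal per base. These intervals leave out the error of the regions with PCGF1 alone. The share was lower in the 710 than with PCGF1 alone up to 2 kb, at 16.8% against 19.1%. At 10 to 20 kb it was also lower, at 28.7% against 31.3%, and in the other width classes it was higher. Signal per base, the total signal over the width, had a median of 29.6 in the 710 and 17.8 in regions with RING1B and no PCGF1, or 1.45 times (1.38 to 1.50) as much at equal width. The tallest point and the mean over the region therefore differed in the same direction. Of the 710, 530 (74.6%) lay in the 10% of the list with the highest share above the cutoff, against 10.0% of all regions, 28.4% of regions with RING1B alone and 66.9% of regions with PCGF1 alone.

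RING1B covered a limited part of these regions, and PCGF1 a small one. RING1B peaks lay over 26.4% of the bases of the 710 regions and PCGF1 peaks over 3.73%. Per region, the median RING1B cover was 25.0% (22.6 to 27.5) and the middle 50% ran from 12.1% to 48.3%. The 710 thus ranged from regions touched by RING1B to regions filled by it: 154 had RING1B over less than 10% of their bases and 169 over at least 50%. By width, the median cover was 40.5% up to 2 kb, lay between 24.0% and 31.0% in the classes from 2 to 50 kb, and was 9.61% over 50 kb. When regions up to 5 kb apart were joined, the median cover was 12.7%.

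At equal width RING1B covered more of the 710 than of regions with RING1B and no PCGF1, but not more than of those with several RING1B peaks. The ratio was 1.74 (1.58 to 1.92) to regions with RING1B and no PCGF1 and 0.973 (0.879 to 1.07) to those with several RING1B peaks. To those with 1 RING1B peak it was 3.93 (3.55 to 4.34), and 423 of the 710 themselves held 1. The ratio to all regions with RING1B and no PCGF1 depended on width. In regions of 20 to 50 kb the median cover was 24.0%, against 9.06% with RING1B and no PCGF1, whereas in regions of 2 to 5 kb it was 25.9% against 31.6%.

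RING1B strength differed by a small factor in fold and a larger one in -log10 q. The fold enrichment of RING1B is the authors' ratio over background for a peak. The highest fold in a region had a median of 3.77 (3.67 to 3.90) in the 710, against 3.34 (3.33 to 3.35) in regions with RING1B and no PCGF1. At equal width the ratio was 1.12 (1.09 to 1.16), and with RING1B cover equalised as well 1.08. It lay at 1.01 in regions up to 2 kb and of 2 to 5 kb and at 1.19 over 50 kb. The highest -log10 q of RING1B had a median of 4.03 (3.77 to 4.32) in the 710, against 2.56 (2.52 to 2.60) in regions with RING1B and no PCGF1, a ratio of 1.53 (1.43 to 1.64) at equal width. To regions with several RING1B peaks and no PCGF1 both ratios at equal width were smaller. They were 1.08 (1.05 to 1.11) in fold and 1.37 (1.28 to 1.46) in -log10 q. The upper part of the fold range stood further apart, with a 90th percentile of 6.86 in the 710 and 4.52 in regions with RING1B and no PCGF1.

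Inside the regions, PCGF1 and RING1B peaks coincided. In 668 of the 710 regions (94.1%, 92.1 to 95.7) at least 1 PCGF1 peak shared a base with a RING1B peak, and in 610 (85.9%) every PCGF1 peak did. Of the 1139 PCGF1 peaks in these regions 1004 (88.1%, 86.1 to 89.97) lay on RING1B, in regions where RING1B covered 26.4% of the bases. The rule raises these shares, since every one of the 710 had to hold both kinds of peak. It leaves out 156 of the 1295 PCGF1 peaks on H3K27me3, which lay in regions without RING1B. Where RING1B covered a whole region, sharing was fixed in advance. A PCGF1 peak needed only 1 shared base to count, so its share and the 26.4% of bases are unlike measures. The 135 PCGF1 peaks off RING1B were mostly close to it: their distance to the nearest RING1B peak of the region had a median of 396 bp, and 101 of them (74.8%) were within 1 kb. They were also narrower, with a median of 157 bp, against 378 bp for PCGF1 peaks on RING1B.

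RING1B peaks that held PCGF1 were broader than those that did not. The 710 regions met 1426 RING1B peaks, of which 720 held PCGF1 and 706 did not. The peaks with PCGF1 had a median width of 3371 bp (2943 to 3730) and a median fold of 3.66 (3.60 to 3.77). Those without had a median width of 895 bp (832 to 977) and a median fold of 3.12 (3.10 to 3.14). A broad peak has more room for a PCGF1 peak, so the width follows in part from how the 2 sets were formed. The 706 peaks without PCGF1 were also narrower and slightly lower in fold than the 9655 RING1B peaks of H3K27me3 regions that held no PCGF1, whose median width was 1114 bp (1073 to 1154) and median fold 3.19 (3.18 to 3.19).

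PCGF1 peaks in these regions were few per region and modest in fold. Of the 710 regions, 462 (65.1%) held 1 PCGF1 peak, 165 (23.2%) held 2 and 83 (11.7%) held 3 or more. RING1B peaks were single in 423 regions (59.6%) and numbered 5 or more in 56 (7.89%). In 298 regions (42.0%) there was 1 peak of each. The median fold of PCGF1 peaks was 4.88 (4.86 to 4.91) in the 710 regions, against 4.83 (4.76 to 4.91) in H3K27me3 regions without RING1B and 4.73 (4.71 to 4.75) outside H3K27me3. PCGF1 fold thus set the 710 apart by little. The authors' -log10 q had a median of 2.13 in the 710, 1.95 in H3K27me3 regions without RING1B and 1.84 outside H3K27me3. Over all PCGF1 peaks, which include those of the 710, it was 1.97. It reached 5 in 3.07% of the peaks in the 710 (35 of 1139) and in 2.49% of all. Peak width differed more, with a median of 330 bp (289 to 363) in the 710. It was 195.5 bp (172 to 229) in H3K27me3 regions without RING1B and 193 bp (183 to 203) outside H3K27me3.

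Regions with 3 or more PCGF1 peaks were wider and taller, and had higher RING1B folds, than regions with 1. The 83 regions with 3 or more had a median width of 26770 bp, a median height of 197 (185 to 212), a median share above the cutoff of 39.97% and a median highest RING1B fold of 4.94 (4.13 to 5.60). The 462 regions with 1 PCGF1 peak had a median width of 12830 bp, a median height of 151 (145 to 156), a share above the cutoff of 28.1% and a RING1B fold of 3.63 (3.55 to 3.75). Part of this goes with width. Within 20 to 50 kb, where widths were close, the median height was 203 (184 to 218) in 31 regions with 3 or more PCGF1 peaks and 169 (159 to 179) in 130 regions with 1, and the RING1B fold was 5.46 (3.94 to 6.79) and 3.91 (3.69 to 4.07), with intervals that overlapped. The 61 regions of that width with 2 PCGF1 peaks were close to those with 1, at a height of 171 and a share above the cutoff of 31.3%, against 169 and 31.7%. At 5 to 10 kb the median share was 18.7% (13.7 to 36.9) in 26 regions with 2 PCGF1 peaks. With 1 PCGF1 peak it was 26.7% (24.8 to 29.3) in 86 regions, and the intervals overlapped.

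H3K27me3 height followed width more closely than it followed either protein among the 710. Across regions, Spearman's rho between height and the highest RING1B fold was 0.07, and between height and RING1B cover -0.10, whereas between height and width it was 0.44. For PCGF1, rho between height and the highest fold was 0.05. Height had a rho of 0.25 with the number of PCGF1 peaks and 0.25 with the number of RING1B peaks. RING1B fold and RING1B cover went together, with a rho of 0.57. These are descriptions over 710 regions that share the same libraries. The order was not particular to the 710. In the 6828 regions with RING1B and no PCGF1, rho between height and width was 0.68. There, rho of height was 0.11 with the highest RING1B fold, -0.21 with RING1B cover and 0.33 with the number of RING1B peaks. Among the 710, the median height was 171 (156 to 179) in the 154 regions with RING1B cover under 10%. It was 159 (152 to 168) in the 387 with 10 to 50% and 156 (146 to 167) in the 169 with 50% or more, with intervals that overlapped. The median widths in the same order fell, from 26000 to 15890 and 11670 bp. These heights were not compared at equal width, so they do not show how height goes with cover alone. The median highest RING1B fold in the same order was 3.33, 3.71 and 5.36.

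For PCGF1, whether peaks lay more often in the middle of the regions than an even spread gives depended on the borders used. The midpoint fell in the central 50% of the region for 621 of 1139 PCGF1 peaks (54.5%, 51.6 to 57.4) and for 784 of 1430 pairs of a region and a RING1B peak (54.8%, 52.2 to 57.4). The PCGF1 share was 46.5% when peaks within 1 kb were counted and 49.1% when regions up to 5 kb apart were joined, both under the 50% of an even spread. It also varied with width: in regions of up to 2 kb the share was 40.5% for PCGF1 and 15% (5.71 to 29.8) for RING1B, and in those of 20 to 50 kb 59.4% and 56.2%. For RING1B, the central share in regions with RING1B and no PCGF1 was 45.6% at the widths of the 710. RING1B peaks that ran past an edge of the region made up 19.9% of pairs in the 710 and 20.9% in regions with RING1B and no PCGF1 at equal widths, so the edges were crossed about equally often.

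**Figure D3:**
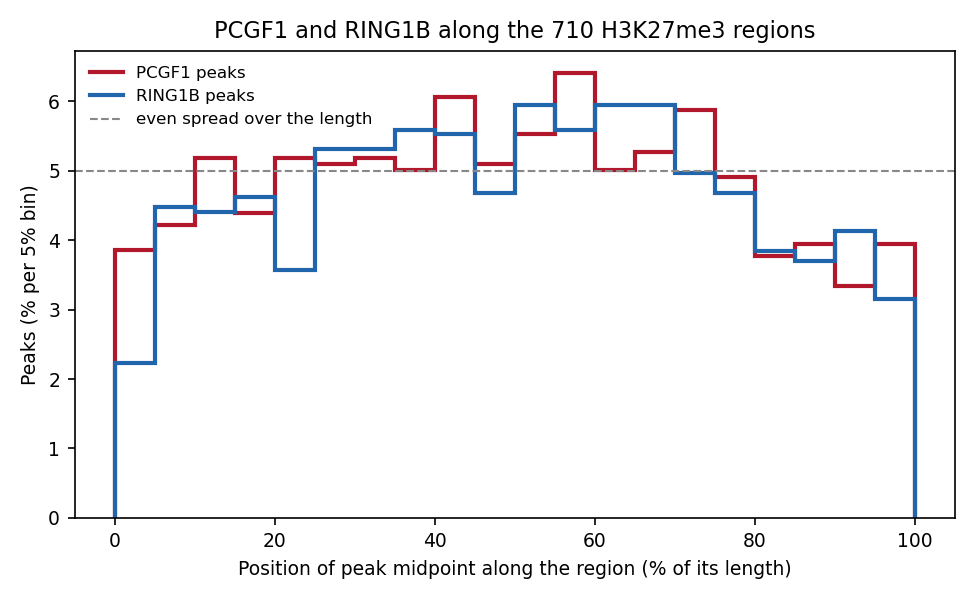
Position of peak midpoints along the 710 regions, scaled to their length (x axis, % of the length), as the share of all peaks per bin (y axis, %). Both PCGF1 and RING1B lie mostly above the dashed line of an even spread between 25% and 75% of the length and below it near the ends.

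The 710 regions lay close to other H3K27me3 regions. The next region was within 5 kb for 575 (81.0%, 77.9 to 83.8), against 87.8% (87.0 to 88.6) of regions with RING1B and no PCGF1, 71.1% with PCGF1 and no RING1B and 61.2% with neither. The list holds no gap shorter than 1510 bp. Only 4 of the 1426 RING1B peaks met more than 1 of the 710 regions, and no PCGF1 peak did.

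Single regions are given in build mm9, with the list's own positions. The 5 regions with the highest RING1B fold had RING1B over 44.3% to 100% of their bases and held 1 to 6 PCGF1 peaks. The highest RING1B fold, 19.4, was at chromosome 10, 21869600 to 21881050, a region of height 203 in which RING1B covered 97.5% of the bases and 3 PCGF1 peaks 35.0%. Next came chromosome 2, 73095560 to 73119060 (fold 18.9, RING1B cover 91.6%, 5 PCGF1 peaks, height 227), and chromosome 15, 35208480 to 35234740 (fold 15.6, cover 68.0%, 6 PCGF1 peaks, height 200.0). The fourth, chromosome 4, 3863260 to 3865270 (fold 14.2), was 2010 bp wide and wholly inside a RING1B peak of 33668 bp. In the fifth, chromosome 16, 22160610 to 22184970 (fold 13.3), RING1B covered 44.3% of the bases and a single PCGF1 peak 12.0%. Their heights, from 160 to 227, were all above the median of 159 in the 710 and ranked between 337 and 1687 among all 135391 regions. They all lay well below the tallest of the list.

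**Figure D4:**
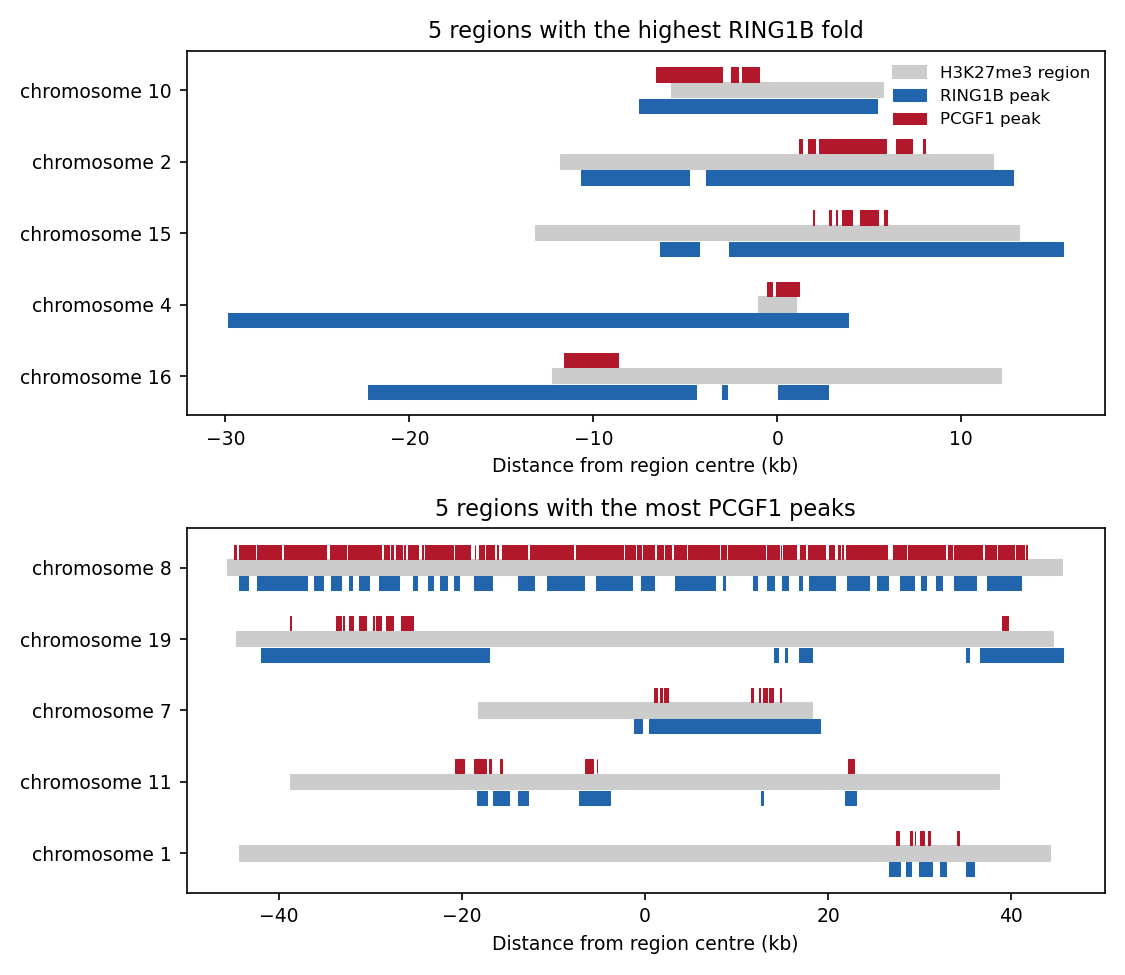
H3K27me3 regions (grey), RING1B peaks (blue) and PCGF1 peaks (red) of the 5 regions with the highest RING1B fold (top) and 5 with the most PCGF1 peaks (bottom; the last, on chromosome 1, is 1 of 4 tied), as distance from the region's centre (x axis, kb). In the top panel PCGF1 peaks sit within wide RING1B peaks, and in the bottom panel the chromosome 8 region holds 48 PCGF1 and 30 RING1B peaks over its whole length.

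The regions with the most PCGF1 peaks differed in RING1B cover. Chromosome 8, 126061200 to 126152230, held 48 PCGF1 peaks over 79.4% of its bases and had the highest total signal of the whole list, with 96.4% of its width above the cutoff and a height of 586. Its mean signal of 217 per base was far above the median of 29.6, its highest RING1B fold, 3.59, was below the median of 3.77, and its highest PCGF1 fold, 5.88, was above the median of 4.99. Chromosome 19, 45292590 to 45381620, had 10 PCGF1 peaks, all on RING1B (cover 39.6%, fold 6.43, height 326). Chromosome 7, 138666800 to 138703160, had 8, all on RING1B (cover 51.0%, fold 8.45, height 244). Chromosome 11, 97375360 to 97452680, had 7 with RING1B over 11.2%, and chromosome 1, 74775610 to 74864030, had 6 with RING1B over 5.36%. It tied with 3 other regions of 6 PCGF1 peaks, on chromosome 14 and, for 2 of them, on chromosome 15, where RING1B covered between 43.0% and 100% of the bases.

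The widest regions ran from nearly free of RING1B to largely covered by it. At chromosome 19, 44656030 to 44931190, the widest region of the whole list, 275160 bp of H3K27me3 with 48.6% above the cutoff held RING1B over 2.07% of its bases, and none of its 3 PCGF1 peaks lay on RING1B. Chromosome 2, 180481180 to 180634430 (153250 bp), and chromosome 2, 35401270 to 35536150 (134880 bp), each had 1 RING1B peak, over 0.558% and 0.583% of the bases. The opposite case was chromosome 6, 52157530 to 52291840 (134310 bp), with 13 RING1B peaks over 76.2% of the bases, a RING1B fold of 10.2 and 5 PCGF1 peaks, all on RING1B. Chromosome 17, 36260820 to 36384240 (123420 bp), was alike, with RING1B over 76.4% and 3 PCGF1 peaks on it, and a height of 423. Between these lay chromosome 11, 61323250 to 61537100 (213850 bp), with 11 RING1B peaks over 10.1% and 1 PCGF1 peak.

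The 5 regions with the highest PCGF1 folds were between 1130 and 29290 bp wide. The highest, 7.40, was at chromosome 17, 26242090 to 26252920, a region of 10830 bp and height 116 where RING1B reached a fold of 2.91. Chromosome 5, 108791140 to 108820430 (PCGF1 fold 6.63), was 29290 bp wide with a height of 210. Chromosome 6, 30901120 to 30909450 (PCGF1 fold 6.51), lay wholly under RING1B of fold 10.1. Chromosome X, 113400720 to 113401850 (6.87), and chromosome 15, 47369300 to 47371710 (6.54), were short and tall, at 1130 and 2410 bp with heights of 237 and 438 and less than 20% of their width above the cutoff.

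A small number of the 710 were very tall. A height of 400 or more was found in 27 of the 710 (3.80%, 2.52 to 5.48), against 31 of 6828 regions with RING1B and no PCGF1 (0.454%, 0.309 to 0.644) and 0.0768% of all regions. Of the 27, 21 were no wider than 10 kb, as were 81 of the 104 regions of that height in the whole list. Their median width was 4130 bp, against 2750 bp in the 31 with RING1B and no PCGF1. Their highest RING1B fold had a median of 2.40 (2.19 to 2.94) and their highest PCGF1 fold 3.79, against 3.83 (3.73 to 3.93) and 4.99 in the other 683. The highest PCGF1 -log10 q ran the other way, with a median of 5.72 (3.14 to 7.61) in the 27 and 2.31 (2.26 to 2.39) in the other 683. The tallest was chromosome 6, 3150740 to 3154870, with a height of 1472, a RING1B fold of 2.19 and a PCGF1 fold of 2.70. It was followed by chromosome X, 166649430 to 166650270 (height 1284, RING1B fold 2.37, PCGF1 fold 1.93), chromosome 7, 52877020 to 52886090 (1185, 3.35 and 4.98), chromosome 16, 3110770 to 3117890 (1111, 1.80 and 2.35), and chromosome 12, 79450290 to 79452190 (1027, 2.50 and 2.81). The part of these differences in the heights was not tested. Without all regions of height 400 or more the height ratio at equal width was 1.29 in place of 1.31.

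Chromosomes differed in how often a region with RING1B also held PCGF1. The share was highest on chromosome 8, at 17.5% (12.5 to 23.5) of 200, followed by chromosome 15 at 15.1% (10.6 to 20.5), chromosome 4 at 14.8% (11.5 to 18.7) and chromosome 17 at 14.6% (10.3 to 19.9), with intervals that overlapped. The low end was X at 2.34% (0.946 to 4.76) of 299, chromosome 13 at 4.22% (2.56 to 6.52) of 450, chromosome 16 at 5.45% and chromosome 1 at 5.71%. These shares were not weighted to equal widths. Over the whole list the same share was 3.06% in regions up to 2 kb and 32.4% in those over 50 kb. X held 13557 H3K27me3 regions, more than any other chromosome, and 7 of the 710. The median height of the 710 by chromosome lay between 144 on chromosome 10 and 186 on chromosome 19.

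**Figure D5:**
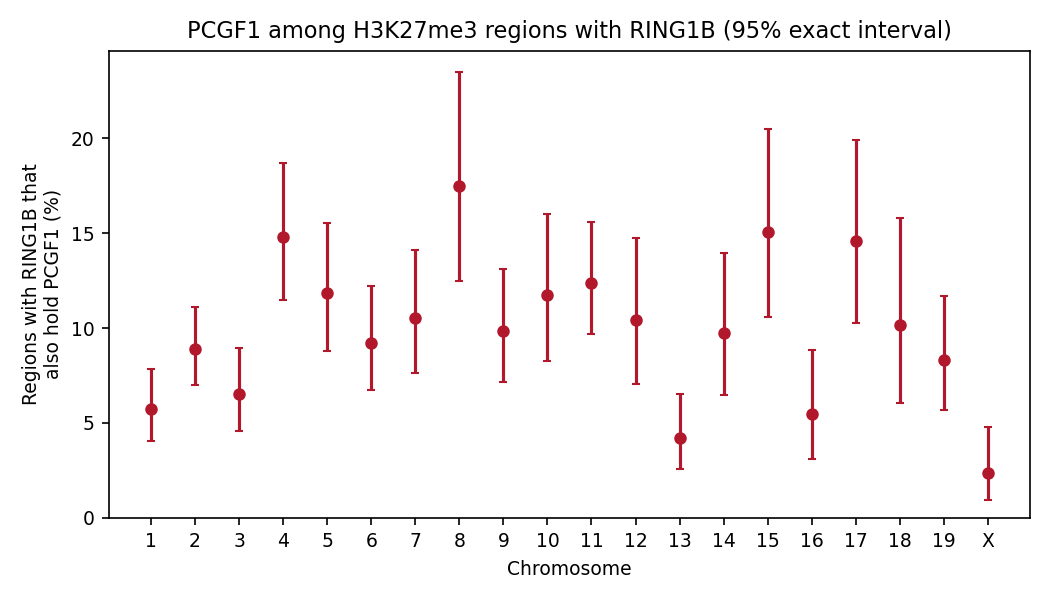
Share of H3K27me3 regions with RING1B that also hold PCGF1 (y axis, %, from 0) by chromosome (x axis), with exact 95% binomial intervals. Chromosome 8 is highest at 17.5% and X lowest at 2.34%.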

How the data were processed

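The lists come from chromatin immunoprecipitation of IdHP cells, and the labels name the 2 libraries of each. The submitters' processing notes name builds mm9 and dm3 and the tools Bowtie2, Picard and SAMtools (1.6.0), with no role for any; positions were taken as mm9. No source used here gives the peak caller, threshold, control or pooling. The deposited H3K27me3 table holds, per the file headers, a signal on an unstated scale (the height, and its total over the region), the bases above a cutoff, and a positive logP of the height, taken as -log10. The deposited RING1B and PCGF1 peaks are in broadPeak layout, where the authors' fold is a ratio over background, their -log10 q rates the peak, and their score is 10 times that -log10 q, rounded down.

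Overlap of at least 1 bp was computed with Python 3.11.15, pandas 2.3.3, numpy 2.4.6 and scipy 1.17.1, and tested on simulated data against bedtools 2.31.1; the weighting to width classes was tested on simulated regions. Medians have exact order-statistic intervals and shares exact (Clopper-Pearson) 95% intervals. Named regions are the top 5 by total signal, width, PCGF1 fold, RING1B fold, height and number of PCGF1 peaks, without chromosome 18, which held 17 of the 710. Regions, comparisons and alternatives were chosen with earlier results of these data known. The gene table used with this work is of another build, so no genes were assigned and no sequence is shown. The other 38 libraries were not analysed here.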

Additional observations from a re-analysis of the deposited data

How the results depend on the processing

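The 7 values describing the regions with RING1B and PCGF1 were recomputed under 9 other settings and 2 more chosen after seeing the data, which were joining regions up to 5 kb apart and leaving out regions of height 400 or more. RING1B cover was equalised with width, also after seeing the data, for the height and RING1B fold ratios alone. The height ratio at equal width stayed between 1.29 and 1.33. With the stronger 50% of PCGF1 and RING1B peaks there were 447 regions, and the RING1B fold ratio was 1.08. With RING1B cover equalised it was also 1.08. The width ratio was 2.22 when 50% of a peak had to lie inside, 2.33 among the taller 50% of H3K27me3 regions and 1.85 after joining at 5 kb. That joining also gave a RING1B cover of 12.7% and 49.1% of PCGF1 peaks in the middle, and counting peaks within 1 kb gave 46.5%. Both are below the 50% of an even spread, where the value of 54.5% was above it. No ratio crossed 1. Requiring the PCGF1 peak itself on RING1B gave 100% sharing by construction. Joining at 1 kb changed nothing, since no gap is that short. The cause of the other shifts was not tested. No paired analysis was possible because no list separates its 2 libraries. For the same reason no library could be left out. Read depth is unknown, and the unstated H3K27me3 signal scale allows comparison only within that list.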
